A study of Mus musculus with 8 samples.

Results

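The 7 genes described here encode the coat of caveolae and the ATPase at their neck: the caveolins Cav1, Cav2 and Cav3, the cavins Ptrf, Sdpr and Prkcdbp, and Ehd2. They were chosen by name, by a rule that uses no measured value though earlier results of these data were known, from the 22552 gene symbols in the files, and all 7 were found. Ptrf, Sdpr and Prkcdbp are older symbols of Cavin1, Cavin2 and Cavin3. Each gene's level is its FPKM, the number of sequenced fragments relative to transcript length and library depth, summed over its transcripts. Cav1 has 2 transcripts in the files and each of the others has 1.

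The study purified translating RNA from UCP1-positive cells of 3 fat depots with UCP1-TRAP, a translating ribosome affinity purification. Inguinal white fat (iWAT) gave 3 libraries, perigonadal white fat (pgWAT) gave 2, and interscapular brown fat (BAT) gave 3. The groups differed in depot alone: every library came from female C57B/6 UCP1-TRAP mice of 6 weeks that had spent their last 2 weeks at 4 °C. All had been bred at 30 °C and moved to room temperature at weaning at 3 weeks. Ribosomes were pulled down with a rabbit antibody against GFP, so the values describe RNA bound to tagged ribosomes in cells that use the Ucp1 driver, as far as the purification was clean. Unbound RNA, RNA of whole tissue and mice kept warm were not analysed here. The labels do not say whether the libraries of a depot came from separate animals or pools, so p-values reflect the spread among these libraries alone, and that spread may be technical.

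Caveolae are small flask-shaped pits of the plasma membrane. Caveolins are embedded in the inner leaflet as oligomers, cavins assemble on them from the cytosol as a second coat layer, and EHD2 forms a ring at the neck that holds the pit at the surface. Adipocytes are among the cells richest in caveolae, which buffer membrane tension and hold insulin signalling and fatty acid uptake proteins, and loss of caveolin-1 or cavin-1 causes lipodystrophy.

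The FPKM worth of 1 Ehd2 fragment, which falls as library depth rises, was 0.113 in pgWAT replicate 1 and 0.171 in BAT replicate 1. These were its ends, and it was 0.143 in iWAT replicate 3 and 0.145 in iWAT replicate 1. The fragments on listed transcripts differed more between libraries, and with them the level of most genes. The estimated fragments on listed transcripts ran from 238913 (iWAT replicate 3) to 1072338 (pgWAT replicate 1), and the FPKM of all genes summed to between 75924.9 and 206549 in the same 2 libraries. Both values and the median of all genes placed those libraries at the ends: median-ratio scaling factors were 0.545 for iWAT replicate 3 and 1.81 for pgWAT replicate 1, against 0.886 to 1.21 in the other 6. The median log2 fold change of the 8958 tested genes was 0.52 in pgWAT against BAT and 0.03 in iWAT against BAT on the deposited scale, and 0.03 and 0.01 after median-ratio scaling. Results are therefore given on both scales, and as ratios within a library, which no scaling touches. Adipocyte markers were high in every group (8 of 8 markers, summed FPKM of 2903 to 5575 in iWAT, 5746 to 9267 in pgWAT and 3332 to 3995 in BAT), and all 7 brown or beige markers, Ucp1 among them, were detected in each depot (summed FPKM of 1414 to 3161, 3129 to 3393 and 3961 to 5014).

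Genomic positions are those of the files, in mouse build mm9. Cav1 lies at chr6:17256335-17291328 on the plus strand, and Cav2 at chr6:17231341-17239011 on the same strand, with 17323 bases between the end of Cav2 and the start of Cav1. Cav3 lies far from them at chr6:112409499-112422866 on the plus strand. The cavins and Ehd2 are scattered: Ptrf at chr11:100818051-100831931 (minus strand), Sdpr at chr1:51345970-51359804 (plus strand), Prkcdbp at chr7:112629130-112630711 (minus strand) and Ehd2 at chr7:16534336-16552884 (minus strand). The Cav1 transcripts share their last exon and differ at the start. NM_007616 has 3 exons and begins upstream, and it encodes the longer, alpha isoform of caveolin-1. NM_001243064 has 2 exons, begins 1305 bases downstream within the first intron of NM_007616, and encodes the shorter, beta isoform.

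The 250 bases before a start were read from RefSeq in build GRCm38.p6, where 6 of the 7 genes matched an entry, with 8 windows in all. Prkcdbp (Cavin3) had no entry. The Cav1 windows are shown because the files divide Cav1 between these starts. Those of Ptrf and Ehd2 are shown because these genes passed the test of pgWAT against BAT below on the deposited scale. Capitals mark matches on either strand to short promoter motifs. The GC box was searched as the letters GGGCGG, which 32.7 percent of all 32851 promoter windows of this length hold. The motif bound by nuclear factor Y was searched as CCAAT, which 33.8 percent of those windows hold. The TATA box was searched as the letters TATAAA, which 12.4 percent hold. The CArG box of serum response factor was searched by its name, and 1.47 percent hold one. A match is a string of letters, not a shown binding site, and the motifs searched do not overlap one another in these windows. The first line is upstream of NM_007616 (chr6:17306085-17306334, plus strand), the second upstream of NM_001243064 (chr6:17307390-17307639, plus strand), the third upstream of Ptrf (chr11:100970618-100970867, minus strand) and the last upstream of Ehd2 (chr7:15967536-15967785, minus strand).
Cav1 upstream start: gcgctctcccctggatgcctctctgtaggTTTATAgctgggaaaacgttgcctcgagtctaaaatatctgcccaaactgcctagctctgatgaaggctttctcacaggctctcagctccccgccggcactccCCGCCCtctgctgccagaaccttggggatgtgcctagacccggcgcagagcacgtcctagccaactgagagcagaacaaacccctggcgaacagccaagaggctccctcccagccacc
Cav1 downstream start: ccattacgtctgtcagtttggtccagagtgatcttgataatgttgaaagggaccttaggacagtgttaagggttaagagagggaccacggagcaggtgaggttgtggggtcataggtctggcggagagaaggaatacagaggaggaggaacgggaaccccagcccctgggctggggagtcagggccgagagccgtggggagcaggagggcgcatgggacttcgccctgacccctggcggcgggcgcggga
Ptrf (Cavin1): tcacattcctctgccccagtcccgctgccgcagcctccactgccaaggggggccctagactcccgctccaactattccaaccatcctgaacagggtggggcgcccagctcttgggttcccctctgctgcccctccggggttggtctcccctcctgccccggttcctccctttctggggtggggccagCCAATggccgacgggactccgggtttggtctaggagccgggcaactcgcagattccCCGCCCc
Ehd2: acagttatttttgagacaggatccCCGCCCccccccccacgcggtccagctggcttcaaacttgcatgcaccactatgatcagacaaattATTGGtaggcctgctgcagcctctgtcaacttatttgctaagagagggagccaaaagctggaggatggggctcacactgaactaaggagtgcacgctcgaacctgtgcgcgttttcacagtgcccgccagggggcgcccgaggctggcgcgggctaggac
The upstream Cav1 window holds 1 GC box match and 1 TATA box match, and the downstream window holds none of the motifs searched. The Ptrf and Ehd2 windows each hold 1 match to the GC box and 1 to the nuclear factor Y motif. The Cav2 window, not shown, holds the same matches, and that of Sdpr holds 1 match to the nuclear factor Y motif. These matches therefore do not set Ptrf and Ehd2 apart from the other members. The windows of Cav1, Ptrf and Ehd2 have a GC content of 58.0 to 67.6 percent, against a median of 52.4 percent over all windows. Those of Cav2, Cav3 and Sdpr have 62.0, 56.0 and 40.4 percent.

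Cav1 was the most abundant member in all 8 libraries, at 56.3 ± 34.8 FPKM in iWAT (SD, n = 3), 108 ± 46.8 in pgWAT (n = 2) and 59.1 ± 8.36 in BAT (n = 3). Caveolin-1 is the scaffold without which caveolae do not form outside muscle. Its FPKM was 76.0, 76.8 and 16.1 in the 3 iWAT libraries, 141 and 75.1 in the 2 of pgWAT, and 66.1, 61.4 and 49.9 in the 3 of BAT, in replicate order here and throughout. Both ends of the range belong to the libraries at the ends of the scaling factors, iWAT replicate 3 and pgWAT replicate 1. It ranked above 92.1 to 97.6 percent of the tested genes in each library, and 43.1 to 465.1 fragments lay behind each value. After scaling, Cav1 was 62.6, 67.6 and 29.5 in iWAT, 78.1 and 65.0 in pgWAT, and 71.2, 67.8 and 56.3 in BAT. iWAT replicate 3 remained the lowest, and the other 7 libraries lay between 56.3 and 78.1.

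No comparison of Cav1 passed the test. The log2 fold change was -0.35 in iWAT against BAT (SE 0.41, limma adjusted p = 0.981), 0.80 in pgWAT against BAT (SE 0.46, limma adjusted p = 0.289) and -1.15 in iWAT against pgWAT (SE 0.46, limma adjusted p = 0.317). After scaling these were -0.36, 0.14 and -0.50, with limma adjusted p of 0.520, 0.866 and 0.765. The 95 percent interval of the scaled pgWAT against BAT difference ran from -0.56 to 0.83, so these libraries do not settle a difference of under about that size in either direction. Without iWAT replicate 3 the difference between iWAT and BAT changed sign on the deposited scale, to 0.37 (limma adjusted p = 0.462), and Cav1 passed in pgWAT against BAT (limma adjusted p = 0.0461).

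**Figure D1:**
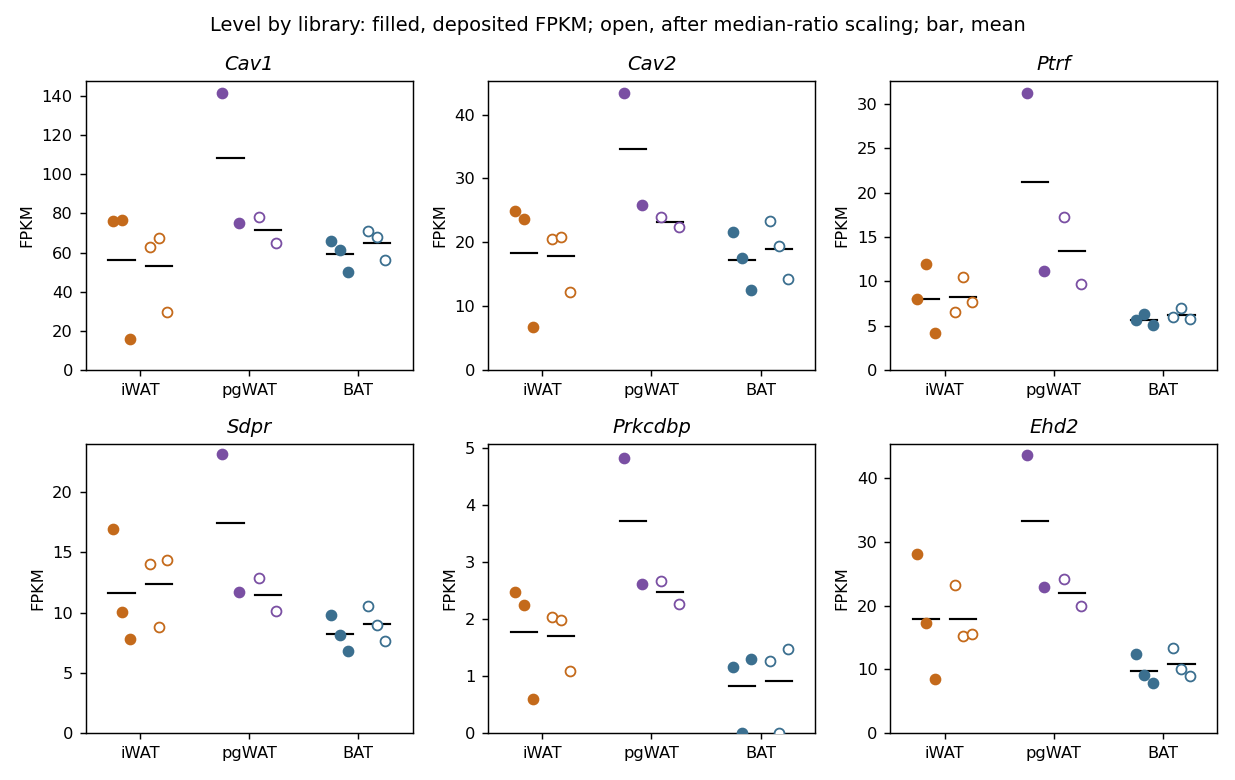
FPKM of the detected members in each of the 8 libraries, with the depots iWAT, pgWAT and BAT side by side. As deposited, Cav1 is the highest gene in every library, Cav3 is at 0 throughout, and pgWAT replicate 1 is the highest library for each of the 6 detected genes.

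The files divide Cav1 between its starts, and most of it was assigned to the 2-exon transcript. NM_001243064 held 86.6, 87.7 and 99.99 percent of Cav1 FPKM in iWAT, 74.4 and 67.8 percent in pgWAT, and 64.9, 99.9 and 78.8 percent in BAT. The 3-exon transcript NM_007616 was at 10.2, 9.48 and 0.00084 FPKM in iWAT, 36.2 and 24.2 in pgWAT, and 23.2, 0.075 and 10.6 in BAT. Its share was above that of every iWAT library in both pgWAT libraries, and BAT spanned almost the whole range, from 0.12 to 35.1 percent. The transcripts differ in only 145 bases (NM_007616) and 241 bases (NM_001243064) of 2526 and 2622, and the estimated fragments of NM_007616 ran from 0.0 to 88.7. Few fragments can therefore tell the starts apart, and the near absence of NM_007616 in iWAT replicate 3 and BAT replicate 2 is an estimate from such fragments, so no depot difference in start use was drawn from it.

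**Figure D2:**
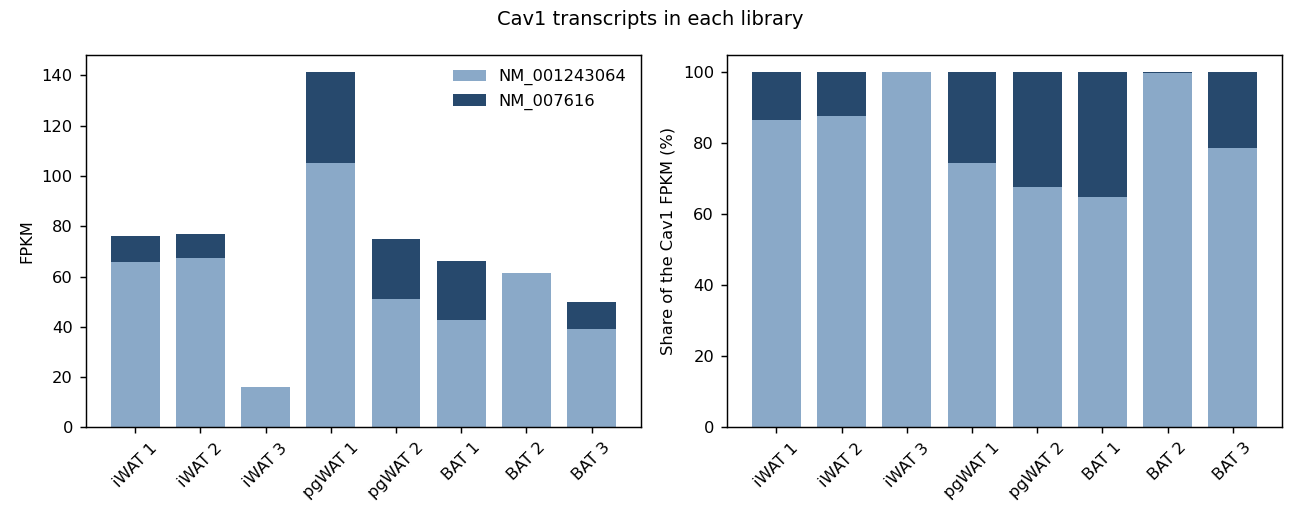
Share of Cav1 FPKM that the files assign to the upstream-start transcript NM_007616 and the downstream-start transcript NM_001243064, in percent, for each library. The downstream-start transcript holds more than the other in all 8 libraries, from 64.9 percent in BAT replicate 1 to 99.99 percent in iWAT replicate 3.

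Cav2, which joins caveolin-1 in hetero-oligomers and is not needed to form the pit, followed Cav1 at a lower level. Its FPKM was 24.9, 23.6 and 6.70 in iWAT (18.4 ± 10.2, SD, n = 3), 43.4 and 25.9 in pgWAT (34.6 ± 12.4, n = 2), and 21.6, 17.6 and 12.6 in BAT (17.3 ± 4.54, n = 3). Both pgWAT libraries lay above all iWAT and BAT libraries, while iWAT and BAT overlapped. The log2 fold change was -0.07 in iWAT against BAT (SE 0.42, limma adjusted p = 0.995), 0.95 in pgWAT against BAT (SE 0.47, limma adjusted p = 0.230) and -1.02 in iWAT against pgWAT (SE 0.47, limma adjusted p = 0.379). Scaling brought the pgWAT against BAT value to 0.30 (limma adjusted p = 0.591), and the groups then overlapped. Without iWAT replicate 3, Cav2 passed in pgWAT against BAT on the deposited scale (limma adjusted p = 0.0374). Cav2 made up 15.1 to 18.5 percent of the summed FPKM of the 7 genes in all 8 libraries, the narrowest relative span of the detected members.

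Cav3, the muscle caveolin, was at 0 in all 8 libraries. At the depth of these libraries 3 fragments over a depot would have been 0.456 FPKM in iWAT, 0.551 in pgWAT and 0.476 in BAT, which limits Cav3 to about those levels for counting error alone. It was the only member that failed the filter on low values. Of 10 skeletal muscle markers, 6 were at 0 in iWAT, 3 in pgWAT and 2 in BAT, and their summed FPKM was 0.0955 to 0.559, 1.52 to 1.95 and 1.44 to 7.90. The summed FPKM of 8 smooth muscle markers was 43.1 to 137 in iWAT, where Cav3 was also at 0.

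Ptrf encodes cavin-1, the coat protein that all caveolae require. Its FPKM was 7.97, 12.0 and 4.18 in iWAT (8.04 ± 3.90, SD, n = 3), 31.2 and 11.2 in pgWAT (21.2 ± 14.2, n = 2), and 5.60, 6.33 and 5.11 in BAT (5.68 ± 0.616, n = 3). BAT was tight and below both pgWAT libraries, and pgWAT replicate 1 stood above every other library. Ptrf passed in pgWAT against BAT with a log2 fold change of 1.57 (SE 0.47, limma adjusted p = 0.0312), a 3.73-fold ratio of mean FPKM. After scaling, the values were 17.3 and 9.67 in pgWAT against 6.03, 6.99 and 5.76 in BAT, and they still did not overlap. The scaled log2 fold change of 0.95 did not pass (SE 0.27, limma adjusted p = 0.0678). On the deposited scale the log2 fold change in iWAT against BAT was 0.34 (SE 0.42, limma adjusted p = 0.984), and in iWAT against pgWAT -1.23 (SE 0.47, limma adjusted p = 0.295, unadjusted p = 0.0107). After scaling these were 0.33 and -0.61, and neither passed (limma adjusted p = 0.492 and 0.635).

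Sdpr encodes cavin-2, which shapes the membrane of the pit. It had an FPKM of 16.99, 10.02 and 7.84 in iWAT (11.6 ± 4.78, SD, n = 3), 23.2 and 11.7 in pgWAT (17.5 ± 8.14, n = 2), and 9.83, 8.16 and 6.77 in BAT (8.25 ± 1.53, n = 3). Both pgWAT libraries lay above BAT, and iWAT overlapped both depots. None of its comparisons passed: the log2 fold change was 0.94 in pgWAT against BAT (SE 0.46, limma adjusted p = 0.222) and 0.39 in iWAT against BAT (SE 0.41, limma adjusted p = 0.976). In iWAT against pgWAT it was -0.54 on the deposited scale and 0.08 after scaling, so its direction between the white depots depended on the scale.

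Prkcdbp, which encodes cavin-3, a cavin tied to signalling and to caveolar transport, was the lowest of the detected members. Its FPKM was 2.47, 2.25 and 0.593 in iWAT (1.77 ± 1.02, SD, n = 3), 4.83 and 2.61 in pgWAT (3.72 ± 1.57, n = 2), and 1.16, 0 and 1.30 in BAT (0.822 ± 0.715, n = 3). These values rest on 8, 7 and 2 fragments in iWAT, 20 and 9 in pgWAT, and 3, 0 and 4 in BAT, so counting error alone is wide. In BAT replicate 2 the count of 0 allows up to 1.61 FPKM, the worth of 3 fragments there. Prkcdbp passed in pgWAT against BAT (log2 fold change 1.42, SE 0.44, limma adjusted p = 0.0408), with no overlap between the groups. After scaling it did not (log2 fold change 0.96, SE 0.38, limma adjusted p = 0.183).

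Ehd2, the neck ATPase, was the only member called on both scales, in pgWAT against BAT. Its FPKM was 28.1, 17.3 and 8.43 in iWAT (17.9 ± 9.85, SD, n = 3), 43.6 and 22.9 in pgWAT (33.3 ± 14.6, n = 2), and 12.3, 9.13 and 7.88 in BAT (9.78 ± 2.29, n = 3). Both pgWAT libraries lay above BAT, while iWAT replicate 3 fell inside the BAT range. The log2 fold change in pgWAT against BAT was 1.62 (SE 0.47, limma adjusted p = 0.0248), a 3.40-fold ratio of mean FPKM. After scaling, Ehd2 was 23.2, 15.2 and 15.5 in iWAT, 24.1 and 19.9 in pgWAT, and 13.3, 10.1 and 8.89 in BAT, so that every white fat library lay above every BAT library. The pgWAT against BAT difference passed on that scale too, with a log2 fold change of 0.98 (SE 0.24, limma adjusted p = 0.0392). In iWAT against BAT the scaled difference was 0.68 (SE 0.22), which did not pass (limma adjusted p = 0.111, unadjusted p = 0.00984). With the replicate number as a block in the model this scaled difference passed (limma adjusted p = 0.0495). The labels do not say whether the numbers pair the libraries. On the deposited scale that difference was 0.69 (SE 0.42, limma adjusted p = 0.777). The difference between the white depots did not pass (log2 fold change of iWAT against pgWAT -0.93, SE 0.47, limma adjusted p = 0.399).

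Over the 6 members tested, 3 were called higher in pgWAT than in BAT (Ptrf, Prkcdbp and Ehd2) and none lower, where 4.91 percent of all tested genes were called higher. All 6 had a positive fold change, as did 85.3 percent of all tested genes, and all 6 had groups that did not overlap, as did 48.3 percent of all genes. The median log2 fold change was 1.19 for the members and 0.52 for all genes. After scaling, 1 of 6 (Ehd2) was called higher, where 2.63 percent of all genes were, and 3 of 6 had non-overlapping groups (Ptrf, Prkcdbp and Ehd2), where 20.2 percent of all genes did. The scaled medians were 0.63 for the members and 0.03 for all genes. The 3 deposited-scale calls became 0 with a pseudocount of 0.1, with no filter on FPKM, with a replicate block, and with only the most abundant transcript of each gene. They also rest on single libraries. Without pgWAT replicate 1, no member was called on either scale, and on the deposited scale the limma adjusted p was 0.810 for Ehd2, 0.982 for Ptrf and 0.715 for Prkcdbp; 5 were called on the deposited scale without iWAT replicate 3. On that scale none was called without BAT replicate 2, and 1 was called without iWAT replicate 1, BAT replicate 1 or BAT replicate 3. The scaled call of Ehd2 was lost without pgWAT replicate 1 (limma adjusted p = 0.310), pgWAT replicate 2 (0.0914), BAT replicate 2 (0.0987) or BAT replicate 3 (0.106). Without pgWAT replicate 2, Ptrf was the scaled call instead (limma adjusted p = 0.0392).

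In iWAT against BAT, 0 of 6 members were called by limma, where 2.2 percent of all tested genes were called either way, and 0 of 6 reached an unadjusted p under 0.05, where 5.39 percent of all genes were higher and 3.13 percent lower at that p. The log2 fold change was above 0 for 4 of 6 members and for 53.1 percent of all genes, with medians of 0.37 and 0.03. Scaled, 0 of 6 were called, where 4.69 percent of all genes were, and 1 (Ehd2) was higher at an unadjusted p under 0.05, where 10.04 percent of all genes were. Ehd2 was also the only member whose scaled groups did not overlap, where 13.3 percent of all genes were higher without overlap. In iWAT against pgWAT, 0 of 6 were called, where 0.703 percent of all genes were, and 3 (Cav1, Cav2 and Ptrf) were lower at an unadjusted p under 0.05, where 11.2 percent of all genes were. The groups did not overlap for 2 of 6 (Cav2 and Prkcdbp, lower in iWAT), where 27.5 percent of all genes were lower without overlap. The median was -0.98 for the members and -0.50 for all genes. Scaled, 0 of 6 were called, where 0.313 percent of all genes were, and 1 (Ptrf) was lower at an unadjusted p under 0.05, where 2.86 percent of all genes were. The pgWAT against BAT and iWAT against BAT comparisons share the BAT libraries.

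**Figure D3:**
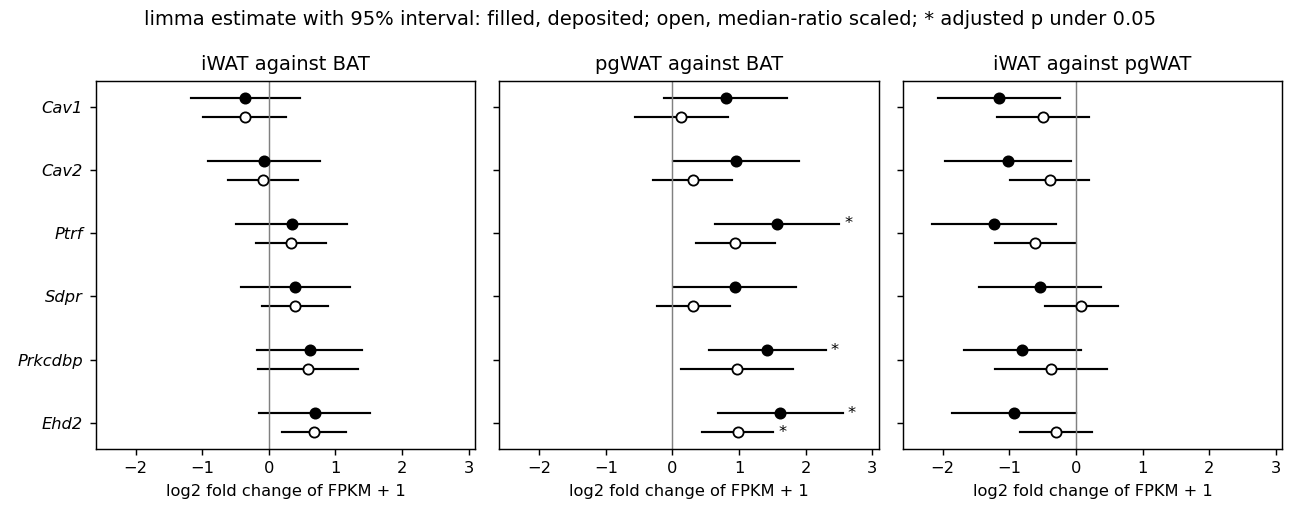
Log2 fold change of each tested member in the 3 depot comparisons, on the deposited and on the median-ratio scaled FPKM, with 95 percent intervals. In pgWAT against BAT every member is above 0 on both scales, and Ehd2 is the only member called on both.

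Within a library the members could be compared without any scaling, and BAT did not overlap white fat in the shares of Cav1 and Ehd2. Cav1 took 56.7, 59.9 and 59.7 percent of the summed FPKM of the 7 genes in BAT (58.8 ± 1.80, SD, n = 3), above every white fat library. In iWAT its share was 48.6, 54.1 and 36.7 percent (46.5 ± 8.91, n = 3), and in pgWAT 49.1 and 50.3 percent (49.7 ± 0.819, n = 2). Ehd2 showed the mirror order, with 10.6, 8.90 and 9.43 percent in BAT (9.63 ± 0.849, n = 3), below every white fat library. It held 18.0, 12.2 and 19.2 percent in iWAT (16.5 ± 3.77, n = 3) and 15.2 and 15.4 percent in pgWAT (15.3 ± 0.129, n = 2). Shares within a sum are not independent, since one gene's larger share leaves less for the others. How many of all genes split white fat from BAT in this way was not counted.

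Set against Cav1 alone, Ehd2 stood at 0.370, 0.225 and 0.524 of the Cav1 FPKM in iWAT, 0.309 and 0.305 in pgWAT, and 0.186, 0.149 and 0.158 in BAT. Every white fat library thus lay above every BAT library. Ptrf per Cav1 was 0.105, 0.156 and 0.260 in iWAT, 0.221 and 0.149 in pgWAT, and 0.0847, 0.103 and 0.102 in BAT, again with BAT below all 5 white fat libraries. Prkcdbp per Cav1, on few fragments, was also lower in BAT (0.0176, 0 and 0.0261) than in white fat (0.0292 to 0.0369). For Cav2 and Sdpr the ratios overlapped. All these ratios share Cav1 as denominator, and Cav1 was lowest in iWAT replicate 3. For scale, 15.1 percent of all tested genes had a ratio to Cav1 that was higher without overlap in iWAT than in BAT, and 13.7 percent in pgWAT than in BAT. These percentages take each white depot alone, so they do not measure a split of all 5 white fat libraries from BAT. An exact permutation test, two-sided, of the member shares could not reach 0.05: the smallest p it allows is 0.1 for 3 against 3 libraries and 0.2 for 2 against 3. The differences in the Cav1 and Ehd2 shares were at those limits, and their Benjamini-Hochberg adjusted exact p over 18 comparisons was 0.45.

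**Figure D4:**
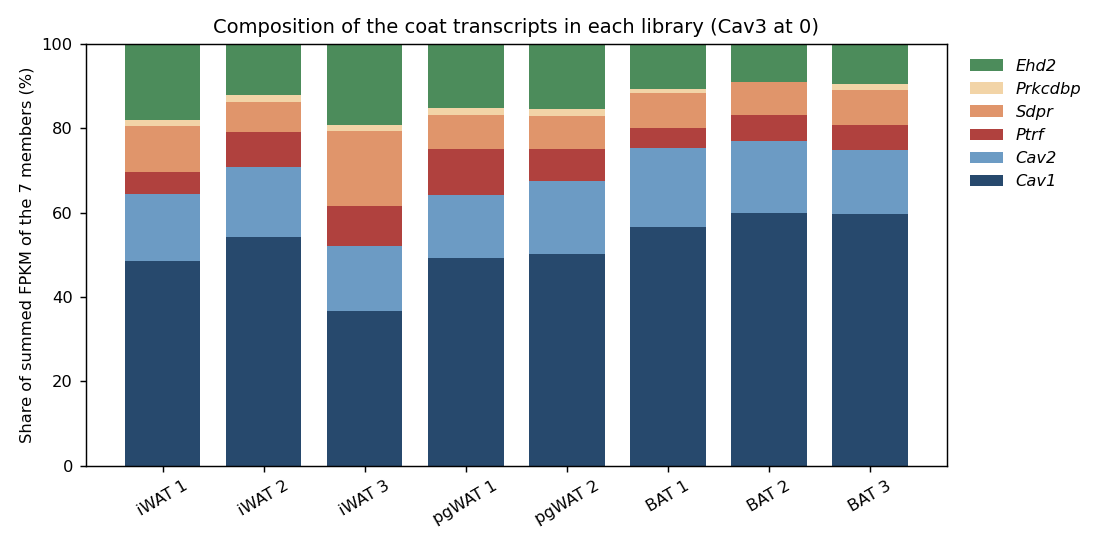
Share of each member in the summed FPKM of the 7 genes, in percent, per library, with the depots side by side. Cav1 holds 56.7 to 59.9 percent in BAT and 36.7 to 54.1 percent in the white fat libraries, and Ehd2 holds 8.90 to 10.6 percent in BAT and 12.2 to 19.2 percent in white fat.

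The order of the members was stable at both ends. Cav1 was first in all 8 libraries, and among the 6 detected genes Prkcdbp was last in all 8. Cav2 and Ehd2 exchanged places, with Cav2 above Ehd2 in all 3 BAT libraries and in iWAT replicate 2 and pgWAT replicate 2, and Ehd2 above Cav2 in iWAT replicates 1 and 3 and pgWAT replicate 1. Sdpr and Ptrf also exchanged places, Ptrf being the higher in iWAT replicate 2 and pgWAT replicate 1. The summed FPKM of all 7 was 156, 142 and 43.8 in iWAT, 288 and 149 in pgWAT, and 117, 103 and 83.5 in BAT. In bulk libraries of this kind, fewer cells of a type and less RNA per cell cannot be told apart.

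Endothelial cells, smooth muscle and fibroblasts carry many caveolae as well, so their markers were measured beside the members. Of 12 endothelial markers, the number with a mean of at least 1 FPKM was 1 in iWAT, 5 in pgWAT and 1 in BAT, and their summed FPKM was 1.27 to 4.96, 9.22 to 17.3 and 2.94 to 4.97. Emcn was at 0 in every iWAT and BAT library, and Tie1 in every BAT library. Against a Cav1 level of 16.1 to 141 FPKM, the endothelial sum was higher in both pgWAT libraries than in any iWAT or BAT library. The members called in pgWAT against BAT were not called in iWAT against pgWAT, where 0.703 percent of all genes were as deposited. The lack of a call there does not set them apart. The 7 fibroblast markers summed to 14.6 to 24.8 in iWAT, 21.5 to 115 in pgWAT and 3.39 to 11.6 in BAT, and Lum was at 0 in BAT. The 7 pericyte markers summed to 4.05 to 7.14, 6.93 to 22.0 and 2.66 to 4.08. Smooth muscle markers went another way, summing to 43.1 to 137 in iWAT, 8.83 to 15.1 in pgWAT and 6.95 to 8.33 in BAT, with Tagln, Smtn and Lmod1 at 0 in BAT. Myoepithelial and mammary luminal markers (5 genes each) were at 0 in all BAT libraries and summed to 10.8 to 28.97 and 18.9 to 36.7 in iWAT, and to 4.87 to 5.76 and 0.573 to 2.43 in pgWAT. The 5 macrophage markers summed to 3.39 to 5.22, 5.32 to 9.997 and 3.40 to 6.47. In pgWAT against BAT, limma called 4 of 8 adipocyte markers higher on the deposited scale and 2 after scaling. Of all genes, 4.91 and 2.63 percent were called higher. Of 7 brown or beige markers, 1 and 3 were called lower, where 0.268 percent of all genes were on the deposited scale. Of 5 tested fibroblast markers, 4 and 1 were called higher. On both scales 1 of 3 tested endothelial (Emcn), 1 of 3 tested pericyte (Mcam) and 1 of 5 myoepithelial markers (Oxtr) were called higher. Of 2 tested skeletal muscle markers, Mb was called lower as deposited and not after scaling. No smooth muscle, mammary luminal or macrophage marker was called. In iWAT against BAT, 1 and 2 adipocyte markers were called higher, and 2 and 3 brown or beige markers lower. Of all genes, 1.73 and 3.04 percent were called higher there, and 0.469 percent lower on the deposited scale. The scaled shares of all genes called lower are not given here. Also called higher were 4 and 6 smooth muscle, 4 and 5 myoepithelial, 5 and 5 mammary luminal and 1 and 1 macrophage markers. Of 2 tested skeletal muscle markers, Mb was called lower on both scales. No endothelial, pericyte or fibroblast marker was called in that comparison. In iWAT against pgWAT, 4 smooth muscle, 3 myoepithelial and 5 mammary luminal markers were called higher on both scales. The fibroblast marker Dcn was called lower there as deposited and not after scaling. Of all genes, 0.703 and 0.313 percent were called either way. The part of these markers' cells, adipocytes included, in the levels of Ehd2, Ptrf and Prkcdbp was not tested.

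Beside the coat genes, 31 genes of caveolae, of related membrane-bending proteins and of other raft scaffolds were followed, of which 22 passed the filter. In iWAT against BAT 2 of 22 were called higher and 0 lower, against 1.73 and 0.469 percent of all tested genes. These were Slc27a1, a fatty acid transporter, and Flna, the filamin that links caveolae to actin. In pgWAT against BAT 4 of 22 were called higher and 0 lower (all genes, 4.91 and 0.268 percent). In iWAT against pgWAT 0 of 22 were called, with 1 higher and 2 lower at an unadjusted p under 0.05 (all genes, 1.22 and 11.2 percent). The medians of the 22 were 0.21, 0.84 and -0.63 in these comparisons, against 0.03, 0.52 and -0.50 for all genes. After scaling 3 were called higher in iWAT against BAT, where 3.04 percent of all genes were (Flna, Slc27a1 and Filip1l, a filamin-interacting protein). In pgWAT against BAT 2 were called higher (Slc27a1 among them), where 2.63 percent of all genes were. In iWAT against pgWAT 0 were called, where 0.313 percent of all genes were called either way. None was called lower in any of these comparisons.

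Slc27a1 had larger fold changes against BAT than any coat gene. Its FPKM was 39.8, 55.5 and 18.8 in iWAT, 157 and 54.0 in pgWAT, and 5.76, 5.16 and 5.02 in BAT, so that each white fat library lay above all BAT libraries. The log2 fold change was 2.503 in iWAT against BAT (limma adjusted p = 2.05e-05) and 3.89 in pgWAT against BAT (limma adjusted p = 3.00e-09). Flna was 11.5, 6.14 and 3.63 FPKM in iWAT, 4.07 and 0.799 in pgWAT, and 0.5003, 0.233 and 0.583 in BAT, again with no overlap between white fat and BAT. It passed in iWAT against BAT (log2 fold change 2.38, limma adjusted p = 2.36e-05) and not in pgWAT against BAT (1.08, limma adjusted p = 0.154). Flna is also abundant in smooth muscle, whose markers were highest in iWAT, and their part in its level was not tested.

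The calls in pgWAT against BAT also included Aoc3, a surface amine oxidase of adipocytes (log2 fold change 1.64, limma adjusted p = 0.0319), and Nos3, the endothelial nitric oxide synthase that binds caveolin-1 (1.36, limma adjusted p = 0.0418). Nos3 was low, at 3.01 ± 1.70 FPKM in pgWAT (SD, n = 2) and 0.506 ± 0.248 in BAT (n = 3). Aoc3 and Nos3 were not called after scaling (limma adjusted p = 0.207 and 0.0836), and without pgWAT replicate 1 both lost their calls on the deposited scale (limma adjusted p = 0.955 and 0.890). Receptors and transporters that use caveolae were high without a call: Cd36, a fatty acid transporter, had a mean of 347, 542 and 306 FPKM in iWAT, pgWAT and BAT, and Slc2a4, the insulin-regulated glucose transporter, 41.8, 71.1 and 28.6.

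The neck and scission proteins related to Ehd2 were not called in any comparison (4 of 10 tested). Of all genes, only 2.2 percent were called in iWAT against BAT and 0.703 percent in iWAT against pgWAT. In pgWAT against BAT 4.91 percent were called higher. The lack of a call among 4 genes therefore does not set them apart. Ehd1, the paralog of Ehd2 in endosomal recycling, had a mean of 8.10 ± 3.70 FPKM in iWAT (SD, n = 3), 12.3 ± 0.730 in pgWAT (n = 2) and 8.10 ± 1.48 in BAT (n = 3). Pacsin2, a membrane-bending F-BAR protein, was at 3.86, 7.56 and 4.27, and Dnm2, the scission GTPase dynamin-2, at 4.06, 6.63 and 3.49. The raft scaffolds outside caveolae were not called either (3 of 3 tested): Stom (stomatin) was at 40.3, 53.8 and 25.5, Flot2 (flotillin-2) at 10.4, 14.2 and 12.0, and Flot1 (flotillin-1) at 3.98, 6.03 and 2.20. At an unadjusted limma p under 0.05, 2 of 3 were higher in pgWAT against BAT as deposited and 1 after scaling. The share of all genes at that p is not given here for pgWAT against BAT, so nothing is drawn from these counts. As deposited, 85.3 percent of all genes had a fold change above 0 in that comparison. In iWAT against BAT the counts at that p were 0 and 2 (all genes, 5.39 and 10.04 percent). After scaling, Stom had means of 42.7, 36.7 and 28.0 FPKM. Its scaled log2 fold change in iWAT against BAT was 0.60 (limma adjusted p = 0.0715), against 0.68 (limma adjusted p = 0.111) for Ehd2. Among the actin and kinase links, Rhoa, a GTPase of actin control, was at 43.7, 75.4 and 37.2, and the kinase Abl1 at 2.03, 3.43 and 1.36, both without a call.

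Across the 8 libraries the 6 detected members had correlated levels, which they share in part through library scale. The 15 pairwise Pearson correlations of log2(FPKM + 1) ran from 0.645 to 0.973 with a median of 0.807 on the deposited scale, and from -0.367 to 0.880 with a median of 0.303 after scaling. The neighbours Cav1 and Cav2 had the highest value on both scales (0.973 and 0.880), and Sdpr and Ehd2 kept a high one (0.968 and 0.740). These are descriptions over 8 libraries of 3 depots. Of the 1752 tested genes with a mean of at least 10 FPKM, those most like Cav1 were Ap2a2 (r = 0.996, rho = 0.905), Egln1 (0.993, 0.952), Abcd3 (0.991, 0.881), Fzd4 (0.990, 0.929) and Cnnm2 (0.989, 0.905), where the median r of that set was 0.814. After scaling these r were 0.458, 0.846, 0.227, 0.895 and 0.808, so the likeness of Ap2a2 and Abcd3 was mostly lost with the scale. Among those most like Ptrf were Adrb3 (r = 0.993, rho = 0.952), Sar1b (0.981, 0.881), Vegfa (0.980, 0.952) and Ddx17 (0.978, 0.952), with a median r of 0.707. Adrb3, the beta-3 adrenergic receptor, kept an r of 0.972 after scaling and 0.979 without pgWAT replicate 1, whereas Sar1b fell to 0.122 after scaling.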

How the data were processed

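Tissue labels gave each sample's group and its title gave the replicate number. The submitters' processing notes name TopHat, Cufflinks and build mm9, without versions. Each deposited file held the authors' FPKM for 1 library and 28702 transcripts, in which Cufflinks divides fragments between overlapping transcripts. Its options, and whether libraries were scaled to each other, are not given in the sources used.

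The members and gene lists were chosen with earlier results of these data known. The 7 members are always named. Of each related list the 3 genes of highest mean FPKM and any called are named, and for Cav1 and Ptrf the 5 most correlated genes, except that some genes these rules name are not reported here.

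FPKM was summed per gene, and 8958 genes were tested: those reaching 1 FPKM in 2 or more libraries whose longest transcript had 300 nt or more. On log2(FPKM + 1), limma with a variance trend fitted 1 model of 3 groups to the 8 libraries, two-sided, and p-values were adjusted by Benjamini-Hochberg over the tested genes of each comparison and called under 0.05. This scale understates fold changes of low genes. Median-ratio scaling divided each library by its median ratio to the geometric mean over libraries. Fragments were recovered from FPKM and its deposited upper confidence bound: in genes with 1 transcript, 85.7 to 93.4 percent of values up to 100 fragments were whole within 0.05. Limits in fragments cover counting error only. The fit was tested on simulated data. Other settings were another pseudocount, no filter, other scalings, the most abundant transcript, a replicate block and each library left out. R 4.3.3, limma 3.58.1, Python 3.11.15, pandas 2.3.3, numpy 2.4.6, scipy 1.17.1 and matplotlib 3.10.9 were used.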

Additional observations from a re-analysis of the deposited data

How the results depend on the processing

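Of 321 values of the 18 member fold changes under other settings, 283 kept their direction and side of the threshold, 30 lost a call, 2 gained one and 6 changed sign. The 3 member calls in pgWAT against BAT became 0 with a pseudocount of 0.1, with no filter, with the replicate block and with the most abundant transcript alone, 1 with median-ratio or quantile scaling, and 0 to 5 with 1 library left out. With the replicate block the limma adjusted p was 0.0506 for Ehd2, 0.0511 for Ptrf and 0.0503 for Prkcdbp. After median-ratio scaling, an alternative extended after seeing the data, the replicate block gave 1 member call in iWAT against BAT (Ehd2, limma adjusted p = 0.0495) in place of 0, and the 1 call in pgWAT against BAT ranged from 0 to 1 with a library left out, the call being Ptrf rather than Ehd2 without pgWAT replicate 2. Same-numbered iWAT and BAT libraries had deviations that correlated at 0.126, 0.0804 and 0.1, each best with its own number, as pairing would give. Deviations within a depot sum to 0 for each gene, so these values are tied to one another and cannot show pairing by themselves. The pgWAT pairs were at -0.0871 to -0.0136, but the deviations of its 2 libraries are mirror images and carry little. The labels do not say that a number marks a shared animal or batch. The main fit therefore did not pair the libraries, and whether the numbers are pairs was not settled.

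The 2 related calls in iWAT against BAT became 0 with no filter. The 4 in pgWAT against BAT became 1 with a pseudocount of 0.1, with no filter or with the most abundant transcript, 2 with median-ratio scaling or the replicate block, and 1 to 9 with 1 library left out. The 0 in iWAT against pgWAT became 1 with quantile normalization and 0 to 1 with 1 library left out. Sign changes were small or rested on a library: Cav1 in iWAT against BAT was -0.72 to 0.37 with 1 library left out and positive without iWAT replicate 3, Cav2 there was 0.0024 with quantile normalization, -0.38 to 0.50 with 1 library left out and positive without iWAT replicate 3 (0.50) or BAT replicate 1 (0.099), and Sdpr in iWAT against pgWAT was 0.082 with median-ratio and 0.029 with quantile scaling. Taking the most abundant transcript drops 1 Cav1 transcript by construction. Shares of Cav1 were then 41.2 percent in pgWAT and 53.2 in BAT, of Cav2 16.7, 19.0 and 19.2 in iWAT, pgWAT and BAT, of Sdpr 9.30 in pgWAT and 9.25 in BAT, of Prkcdbp 2.00 in pgWAT, and of Ehd2 17.8 in pgWAT and 10.97 in BAT. Where settings changed a call the cause was not tested. Depth limits Prkcdbp (0 to 20 fragments a library) and Cav3 (0 fragments).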
